A study of Mus musculus with 12 samples.

Results

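Pseudogenes annotated on the autosomes were measured in the retinas of 2 inbred mouse strains and of their reciprocal hybrids, and the abundant ones were selected on their measured level, a mean over all 18 value columns that reached 100 count equivalents. By this rule 84 of 4296 autosomal pseudogenes were abundant, against 10226 autosomal genes of any kind with the same mean. A count equivalent is the estimated number of reads of a gene, including the share of the reads that it has in common with other genes, as the MMSEQ program divides them. The 4 groups were F0 C57BL/6J, the reference strain, F0 Cast/EiJ, a wild-derived strain, F1 B6xCast, bred from C57BL/6J males and Cast/EiJ females, and F1 CastxB6, bred from Cast/EiJ males and C57BL/6J females. Each group held 3 libraries, each made from a pool of 6 to 8 retinas of untreated male mice aged 8 weeks, so that the tests measured the spread between such pools. F0 libraries have 1 value a gene, and F1 libraries have a value for each of the 2 parental alleles.

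A pseudogene is a copy of a gene that is no longer annotated as coding for the parent's product. Many mouse pseudogenes are retrocopies, spliced mRNAs that were copied back into the genome, and highly transcribed genes such as those of ribosomal proteins and glycolytic enzymes have left many of them. Others are pieces of mitochondrial DNA inserted into a nuclear chromosome, known as numts. The mitochondrial genome itself is inherited from the mother. A short read from a young copy can be identical to the parent's mRNA, and then nothing in the read says which of the loci was transcribed.

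The sequences below show how little separated several abundant pseudogenes from their parents over the length of a sequenced read. All were read from the C57BL/6J reference (NCBI37), lie in the coding part of the parent, and have the bases that differ within each pair in capitals. Gm13340 (chr2:22444634-22444734 on the minus strand) matched mt-Co1, subunit 1 of mitochondrial cytochrome c oxidase (chrM:5761-5861 on the plus strand), and over their whole alignment 37 of 1545 bases differed.
Gm13340: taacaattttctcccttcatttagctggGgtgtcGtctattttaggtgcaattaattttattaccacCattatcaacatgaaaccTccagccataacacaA
mt-Co1: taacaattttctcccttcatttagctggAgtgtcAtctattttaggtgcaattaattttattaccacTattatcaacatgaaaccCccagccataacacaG
Gm11407 (chr4:79648371-79648471 on the plus strand) was the more diverged copy of a mitochondrial gene, with 79 differing bases and 2 gap positions in 1058 aligned columns against mt-Nd5, a subunit of NADH dehydrogenase (chrM:12625-12725 on the plus strand).
Gm11407: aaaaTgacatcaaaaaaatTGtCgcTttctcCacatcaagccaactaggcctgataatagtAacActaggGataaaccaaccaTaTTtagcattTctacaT
mt-Nd5: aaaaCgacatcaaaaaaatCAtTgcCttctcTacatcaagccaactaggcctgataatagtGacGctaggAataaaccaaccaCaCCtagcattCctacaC
Gm10163 (chr9:88285917-88286017 on the plus strand) differed from Rpl21, a protein of the large ribosomal subunit (chr5:147647140-147647240 on the plus strand), at 2 of 547 bases, of which this stretch holds T94C, counted from its 5′ end with the parent's base first.
Gm10163: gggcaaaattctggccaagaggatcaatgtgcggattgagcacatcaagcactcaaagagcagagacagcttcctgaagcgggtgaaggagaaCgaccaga
Rpl21: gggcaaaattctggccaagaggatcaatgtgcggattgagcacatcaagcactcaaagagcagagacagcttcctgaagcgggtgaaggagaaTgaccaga
Gm6969 (chr12:25323554-25323654 on the minus strand) is a copy of Cox7a2l, an assembly factor of respiratory chain supercomplexes (chr17:83901963-83902063 on the minus strand). The stretch holds the substitution C88T.
Gm6969: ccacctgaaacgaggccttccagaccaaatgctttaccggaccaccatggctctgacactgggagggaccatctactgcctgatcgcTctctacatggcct
Cox7a2l: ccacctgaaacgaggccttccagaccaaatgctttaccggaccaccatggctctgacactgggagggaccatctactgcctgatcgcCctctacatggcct
Gm8399 (chr13:81204342-81204442 on the plus strand) is a copy of Actg1, cytoplasmic gamma actin (chr11:120208259-120208359 on the minus strand), with 2 differing bases in the stretch shown, the first of them G54A.
Gm8399: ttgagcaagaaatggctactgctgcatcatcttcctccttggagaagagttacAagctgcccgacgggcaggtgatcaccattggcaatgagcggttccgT
Actg1: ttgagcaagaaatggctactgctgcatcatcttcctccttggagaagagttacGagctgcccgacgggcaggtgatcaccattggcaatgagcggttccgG
Gm13394 (chr2:28789708-28789808 on the minus strand) differed from Gapdh, a glycolytic enzyme (chr6:125112958-125113058 on the minus strand), at 2 of 1251 aligned bases, here at A25C.
Gm13394: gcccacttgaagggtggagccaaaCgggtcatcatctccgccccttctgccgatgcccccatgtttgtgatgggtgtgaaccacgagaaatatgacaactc
Gapdh: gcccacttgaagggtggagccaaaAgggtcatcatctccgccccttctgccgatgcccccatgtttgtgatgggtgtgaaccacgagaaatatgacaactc
Gm13654 (chr2:75029773-75029873 on the minus strand) had no difference from Rps6, a protein of the small ribosomal subunit (chr4:86502663-86502763 on the minus strand), in 797 aligned bases, so that the following letters belong to both.
Gm13654: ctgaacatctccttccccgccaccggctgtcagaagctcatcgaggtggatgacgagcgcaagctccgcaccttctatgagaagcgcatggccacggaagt

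The count equivalents summed to between 13271200 and 13434600 in each F0 library and to between 12648800 and 13843900 for each allele of an F1 library, so a single F1 allele stands on about the scale of an F0 gene. Unique hits, the reads that matched a single gene (in F1 also a single allele), came to between 8158534 and 11888819 in F0 libraries and between 4362511 and 6248716 per F1 allele. The 6 rod photoreceptor genes examined took between 6.16% and 6.59% of the count equivalents in every library, while the marker genes of the pigment epithelium, lens and blood took at most 0.00194%, 0.00144% and 0.00463%. Between the F0 strains, 3 marker genes each for cones (0.0619% to 0.0749% in F0 C57BL/6J, 0.0411% to 0.0497% in F0 Cast/EiJ), ganglion cells (0.0734% to 0.0804%, 0.0462% to 0.0515%) and bipolar cells (0.0736% to 0.0832%, 0.0666% to 0.0718%) were lower in F0 Cast/EiJ without overlap. Those of the pigment epithelium were also lower without overlap (0.00154% to 0.00194%, 0.000454% to 0.000681%). Those of amacrine cells (0.0423% to 0.0511%, 0.0593% to 0.0639%) and the rod genes (6.16% to 6.24%, 6.29% to 6.59%) were higher without overlap. The part of these shares in the strain differences below was not tested.

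Abundant pseudogenes took 0.292% ± 0.0102 (SD, n = 3) of the count equivalents in F0 C57BL/6J and 1.47% ± 0.0461 (SD, n = 3) in F0 Cast/EiJ. In F1 B6xCast the share was 0.899% ± 0.0965 for the C57BL/6J allele and 0.995% ± 0.131 for the Cast/EiJ allele (SD, n = 3). In F1 CastxB6 it was 0.382% ± 0.132 and 0.429% ± 0.107 (SD, n = 3). In whole retina, fewer cells of a type and less RNA per cell cannot be told apart in such shares or in any level below. The 5 members with the highest mean over all value columns, not within each group, made up 21.5% of this total in F0 C57BL/6J and 62.9% in F0 Cast/EiJ.

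By mean over all columns, the list was headed by Gm13340 (22935 count equivalents), Gm12671, a near-identical copy of Gapdh (19009), and Gm13341, a copy of mitochondrial mt-Co2 (9916). They were followed at 3759 or fewer by 6820431F20Rik, Gm17131, Gm1821, 2610005L07Rik, Gm10163, Pisd-ps1, ENSMUSG00000093641, 5830417I10Rik, Gm15500, Rpl10a-ps1, Gm14150 and Oaz2. Just inside the limit were Gm15542 (105), Rps15-ps2 (103) and Gm5564 (101.1). Just outside were Gm10177 (99.0), Gm15431 (98.2) and Rpl34-ps1 (97.9). A mean of 100 within the group itself was reached by 52 members in F0 C57BL/6J, 76 in F0 Cast/EiJ, 63 in F1 B6xCast and 62 in F1 CastxB6. In all 4 groups it was reached by 40 members, and in a single group by 14, of which 13 reached it in F0 Cast/EiJ. A member that entered through a single group had to differ between groups, so the counts of called members below describe the set and support nothing.

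**Figure D1:**
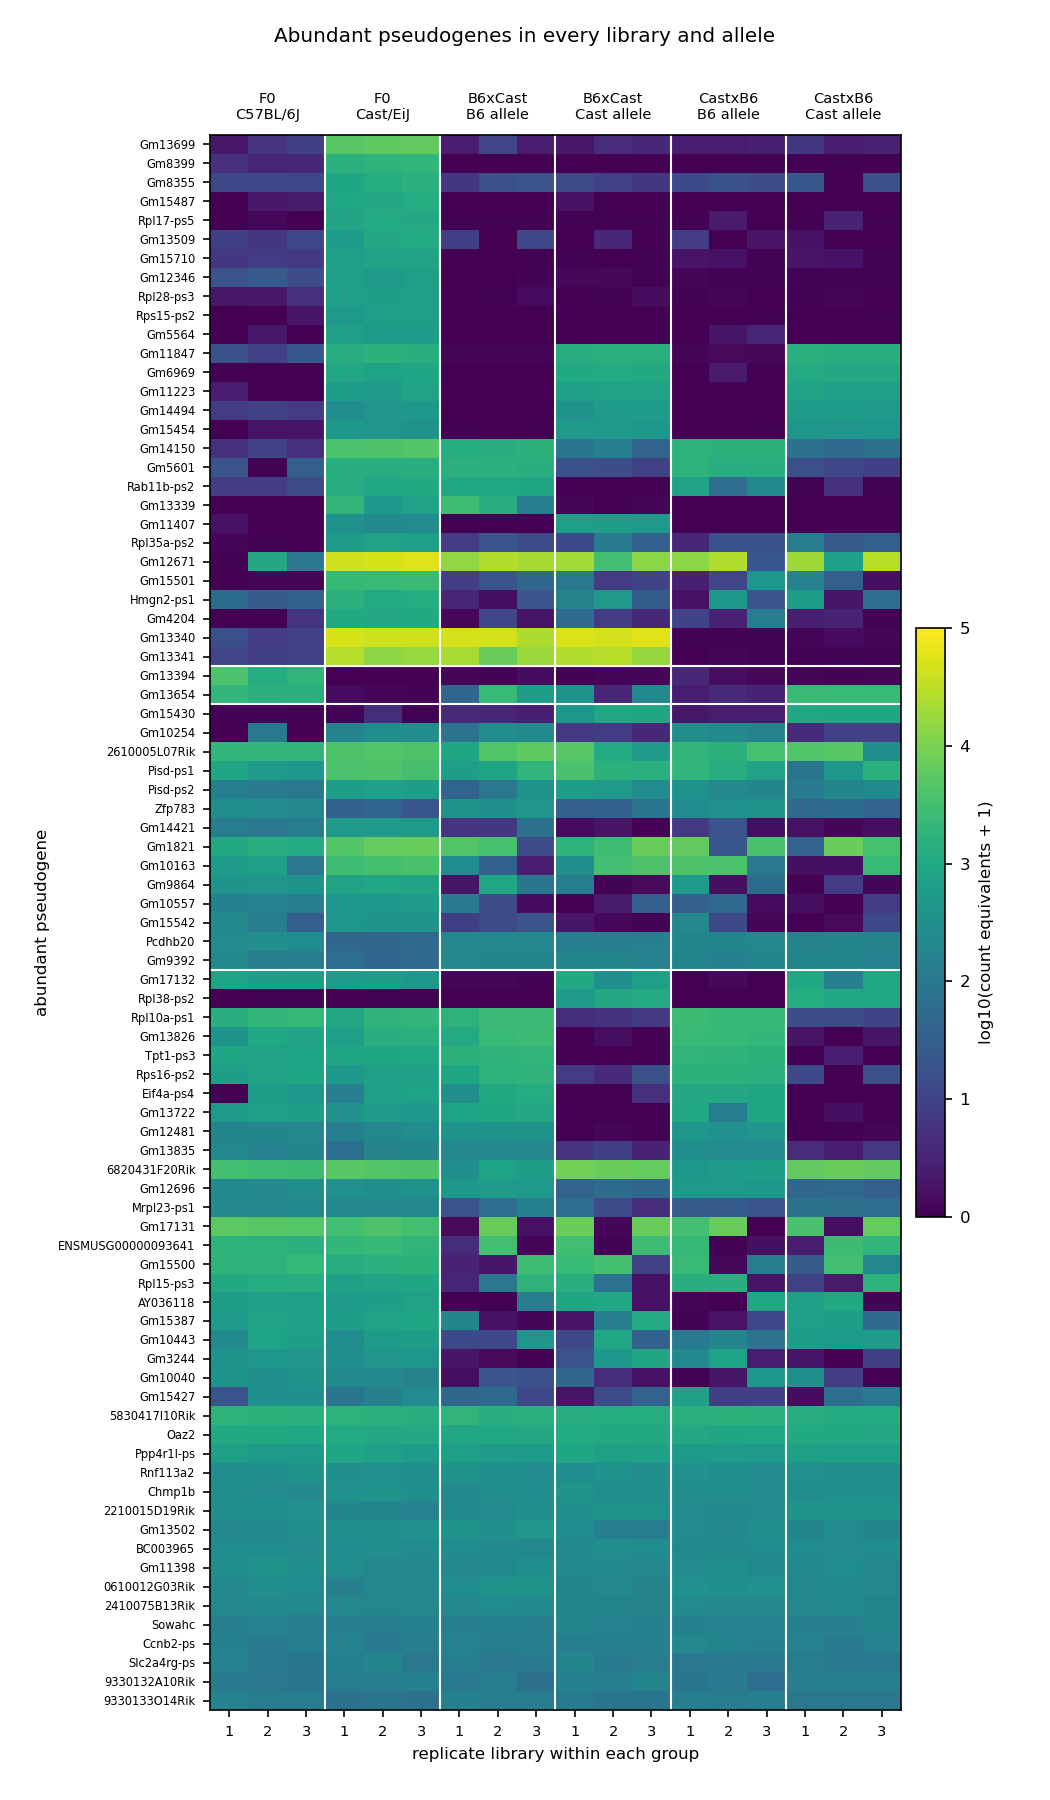
Count equivalents of 83 of the 84 abundant pseudogenes (rows, ordered by pattern) in each library and allele (columns), colored as log10(count equivalents + 1). The upper block of 28 rows is bright in the 3 F0 Cast/EiJ libraries and dark in F0 C57BL/6J, and the lowest 16 rows are even across all columns.

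A parent gene, defined as the best matching gene that is not a pseudogene with at least 80% identity over at least 50% of the pseudogene, was found for 64 of the 84. By class, 18 parents were cytosolic ribosomal proteins, 4 were mitochondrial genes, 2 were actin or tubulin genes (Actg1 and Tuba1b), 2 belonged to heat shock or cyclophilin genes (Hspa8 and Hsp90aa1), 2 were nuclear genes of oxidative phosphorylation (Cox7a2l and Ndufb4), 1 was the glycolytic gene Gapdh, and 35 fell outside these lists. Gm12671 and Gm13699 counted among the latter because their best matches were Gm2606 and Gm5506, themselves copies of Gapdh and of enolase 1. No such parent was found for the other 20, among them Oaz2, a member of the ornithine decarboxylase antizyme family, and Zfp783, named as a zinc finger gene.

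The number of uniquely placed reads per count equivalent differed widely. Unique hits are raw counts and count equivalents are normalized, so their ratio is not a share and can exceed 100 per 100. Over the 6 F0 libraries, members had a median of 34.5 unique hits per 100 count equivalents, against 77.5 for the 10142 other autosomal genes with the same mean. The median was 24.4 for the 64 members with a parent and 77.7 for the 20 without. No unique hit in any F0 library was recorded for 15 members (17.9%), all of which had a parent, and for 0.256% of the other genes. In F1, where a unique hit must also tell the alleles apart, 42 members (50%) had none against 2.29% of other genes. These 42 included all 35 members whose sequence the authors' tables mark as not polymorphic between the strains.

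The unique hits followed the shared sequence. Each member was cut into all its windows of 1 read length, and windows with an exact copy in another annotated transcript were counted. The 13 members with no such window had a median of 78.7 unique hits per 100 count equivalents, the 28 with under 50% of windows shared 61.4, the 43 with at least 50% shared 3.28, and the 10 among these with every window shared 0. Across the 84 members Spearman's rho was -0.93, given as a description, since both measures depend on the same transcripts. At the low end stood Gm12671, Rpl10a-ps1 and Tpt1-ps3, with 0 unique hits in 153416, 10290 and 5226 count equivalents. At the high end were Pcdhb20, named as a protocadherin gene and annotated here as a pseudogene (85.5 per 100), 9330133O14Rik (81.8) and 0610012G03Rik (80.9).

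**Figure D2:**
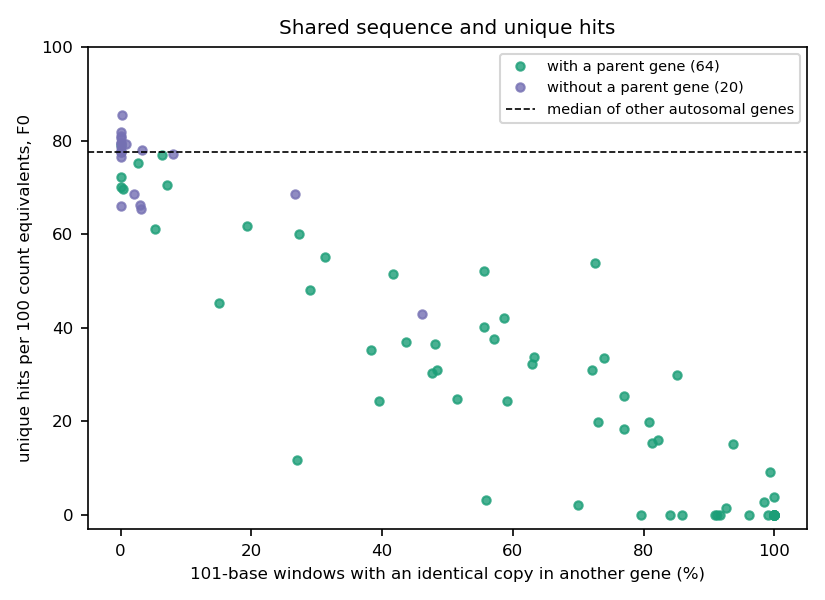
Unique hits per 100 count equivalents over the 6 F0 libraries (y axis) against the percentage of read-length windows with an identical copy in another gene (x axis), 1 point per abundant pseudogene, with the median of other autosomal genes (77.5) as a dashed line. Members without a parent gather at the upper left and members with all windows shared lie at or near 0.

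The deposited posterior SD is the program's own uncertainty on the natural log scale. It was wider for members in F0 C57BL/6J and in F1, most for the non-polymorphic ones, and not in F0 Cast/EiJ. Its median was 0.129 in F0 C57BL/6J against 0.0602 for other genes, and 0.0644 in F0 Cast/EiJ against 0.0679. For the non-polymorphic members in F1 it lay between 4.33 and 5.31 by allele and cross. Polymorphic members had 0.122 to 0.181, and the other genes, 9941 of them polymorphic, had 0.0752 to 0.0784.

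The first comparison asked how abundant pseudogenes differed between the parental strains. Of the 82 members tested, 44 were higher in F0 Cast/EiJ and 12 were lower (limma on log2(count equivalents + 1), Benjamini-Hochberg adjusted p under 0.05). Over all 14452 genes tested, 33.8% were called, 17.2% higher and 16.6% lower. All 3 F0 Cast/EiJ libraries lay above all 3 F0 C57BL/6J libraries for 45 members, against 25.3% of all genes, and below them for 13, against 22.7%. The median absolute difference was 1.84 on the log2 scale for members, or 1.63 with values under 3 count equivalents set to that floor, and 0.26 for all genes. Members with a parent accounted for 39 of the 44 higher and 7 of the 12 lower calls, with a median absolute difference of 5.06, or 3.96 at the floor. Of the 20 without a parent 5 were higher and 5 lower, with a median of 0.41.

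Among the glycolytic genes, Gapdh had 41100, 50800 and 50500 count equivalents in F0 C57BL/6J and 261, 355 and 291 in F0 Cast/EiJ, a log2 difference of -7.29 ± 0.12 (SE, adjusted p = 2.99e-09). On unique hits alone the log2 difference of Gapdh was smaller, at -1.07 (edgeR quasi-likelihood test, adjusted p = 2.47e-05). Gm12671 had 0.0709, 1020 and 96.2 count equivalents in F0 C57BL/6J and 44500, 50600 and 57200 in F0 Cast/EiJ, a log2 difference of 10.06 ± 1.95 (SE, adjusted p = 0.0045). The strain groups did not overlap for either gene, and the direction was opposite. The adjusted p of Gm12671 was 0.11 without a filter on low values and 0.571 when the log expression was weighted by its posterior SD. Gm13394, the second Gapdh copy among the members, had 3840, 1220 and 1840 count equivalents in F0 C57BL/6J and at most 0.0324 in F0 Cast/EiJ, at least 767-fold lower when the floor of 3 is taken. Gm12671 and the genes that hold at least 10% of its windows, 32 genes with Gapdh included, summed to 50353 ± 4470 in F0 C57BL/6J and 51339 ± 6392 in F0 Cast/EiJ (SD, n = 3), a log2 difference of 0.02 ± 0.12 (SE, adjusted p = 0.892).

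Enolase 1 acts later in glycolysis than Gapdh. Eno1 had 27800, 32700 and 32700 count equivalents in F0 C57BL/6J and 2810, 2430 and 2680 in F0 Cast/EiJ. Gm13699 had 1.16, 5.0 and 7.91 in F0 C57BL/6J against 5020, 5660 and 6380 (log2 difference 10.18 ± 0.43 SE, adjusted p = 3.65e-07). Gm5506, which is not a member by biotype, had at most 5.26 count equivalents against 14800, 16300 and 18100. The sum of the 3 genes was 31073 ± 2834 in F0 C57BL/6J and 24727 ± 2284 in F0 Cast/EiJ (SD, n = 3), a log2 difference of -0.33 ± 0.10 (SE, adjusted p = 0.0327).

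Among copies of ribosomal protein genes, 8 of the 16 tested were higher in F0 Cast/EiJ and 3 were lower. The shares were 53.7% and 14.6% over all members tested, and 17.2% and 16.6% over all genes. Gm15501 had at most 0.186 count equivalents in F0 C57BL/6J and 2250, 2370 and 2600 in F0 Cast/EiJ, at least 802-fold higher. Only 3 unique hits stood behind these values, all in F0 Cast/EiJ libraries, and the adjusted p was 2.17e-09, or 0.0842 when weighted by posterior SD.

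Gm10163 had 580 and 677 count equivalents in 2 libraries of F0 C57BL/6J, with a mean of 453 ± 308 over all of that group (SD, n = 3), and 2800, 3360 and 3630 in F0 Cast/EiJ (log2 difference 3.24 ± 0.60 SE, adjusted p = 0.00338). Its unique hits were 0, 1 and 0 against 302, 328 and 401, with no overlap. Its parent Rpl21 went the other way, from 2040, 2280 and 2590 to 63.2, 65.9 and 63.0 (log2 difference -5.14 ± 0.10 SE, adjusted p = 7.29e-09), and their sum did not pass the test (0.27 ± 0.10 SE, adjusted p = 0.0676). Gm13654, whose aligned sequence is that of Rps6, was at 1960, 1580 and 1510 in F0 C57BL/6J and at most 0.422 in F0 Cast/EiJ, at least 561-fold lower, with 0 unique hits throughout and an adjusted p of 5.88e-09, or 0.078 when weighted by posterior SD. Rps6 itself had 843, 1260 and 1730 against 977, 1100 and 1260, and did not pass the test (-0.15 ± 0.22 SE, adjusted p = 0.644). Gm13654 and the genes linked to it by shared windows, as for Gm12671 above, were 7 genes with Rps6 included. Their sum was 2969 ± 241 in F0 C57BL/6J and 2888 ± 204 in F0 Cast/EiJ (SD, n = 3). The log2 difference of this sum was -0.04 ± 0.08 (SE, adjusted p = 0.745).

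Outside the ribosome, Gm6969 had at most 0.00599 count equivalents in F0 C57BL/6J and 990, 799 and 882 in F0 Cast/EiJ, at least 297-fold higher, with 454, 378 and 541 unique hits in F0 Cast/EiJ and 0 in F0 C57BL/6J. Its parent Cox7a2l fell by 2.32 on the log2 scale (SE 0.10, adjusted p = 3.35e-07), from 1110, 1050 and 1290 to 235, 223 and 227. Together they differed by -0.04 ± 0.10 (SE, adjusted p = 0.798). Gm14150, a copy of Tuba1b (alpha tubulin), rose from 4.08, 8.45 and 3.66 to 3920, 4070 and 4680 (log2 difference 9.44 ± 0.25 SE, adjusted p = 2.38e-08), with its parent at -0.78 ± 0.07 (SE, adjusted p = 4.27e-05). Gm8399 rose from 3.62, 2.36 and 2.58 to 1510, 1780 and 1980, at least 586-fold, while Actg1 gave -0.04 ± 0.14 (SE, adjusted p = 0.84) at 8410 and 8160 count equivalents.

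The same comparison was made with unique hits alone, which hold no shared read. Of 62 members with enough unique hits 41 were higher in F0 Cast/EiJ and 11 lower (edgeR quasi-likelihood test, Benjamini-Hochberg adjusted p under 0.05), beside 38% of all 13813 genes tested. Gm8399 had 2, 2 and 2 unique hits in F0 C57BL/6J and 822, 879 and 1208 in F0 Cast/EiJ, and Gm14150 had 2, 5 and 2 against 1010, 1196 and 1723. A unique hit is unique within the transcriptome to which the library was mapped, and F0 libraries of each strain were mapped to that strain's own transcriptome.

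Parents of the members that were higher moved mostly the other way. Of 34 such members with a tested autosomal parent, the parent was called lower in 21, higher in 4 and not called in 9, with a median parent log2 difference of -0.38 against 6.81 for the members. Over all genes tested 16.6% were called lower and 17.2% higher. For 7 members lower in F0 Cast/EiJ, the parent was called lower in 2, higher in 1 and not called in 4, with a median of -0.15. When each parent and its member copies were summed, 7 of 62 sums were higher and 11 lower in F0 Cast/EiJ, beside 33.6% called among all genes, and the median absolute difference was 0.16. Sums beyond 4-fold numbered 5, of the members Pisd-ps1 (log2 difference 2.37), Gm13394 (-7.37), Gm13699 (11.92), Gm11407 (-2.04) and Gm12671 (9.99). Of 53 sums over families linked by at least 10% of a member's windows, 11 were called, 6 higher and 5 lower, against 33.6% of all genes, and 0 were beyond 4-fold.

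**Figure D3:**
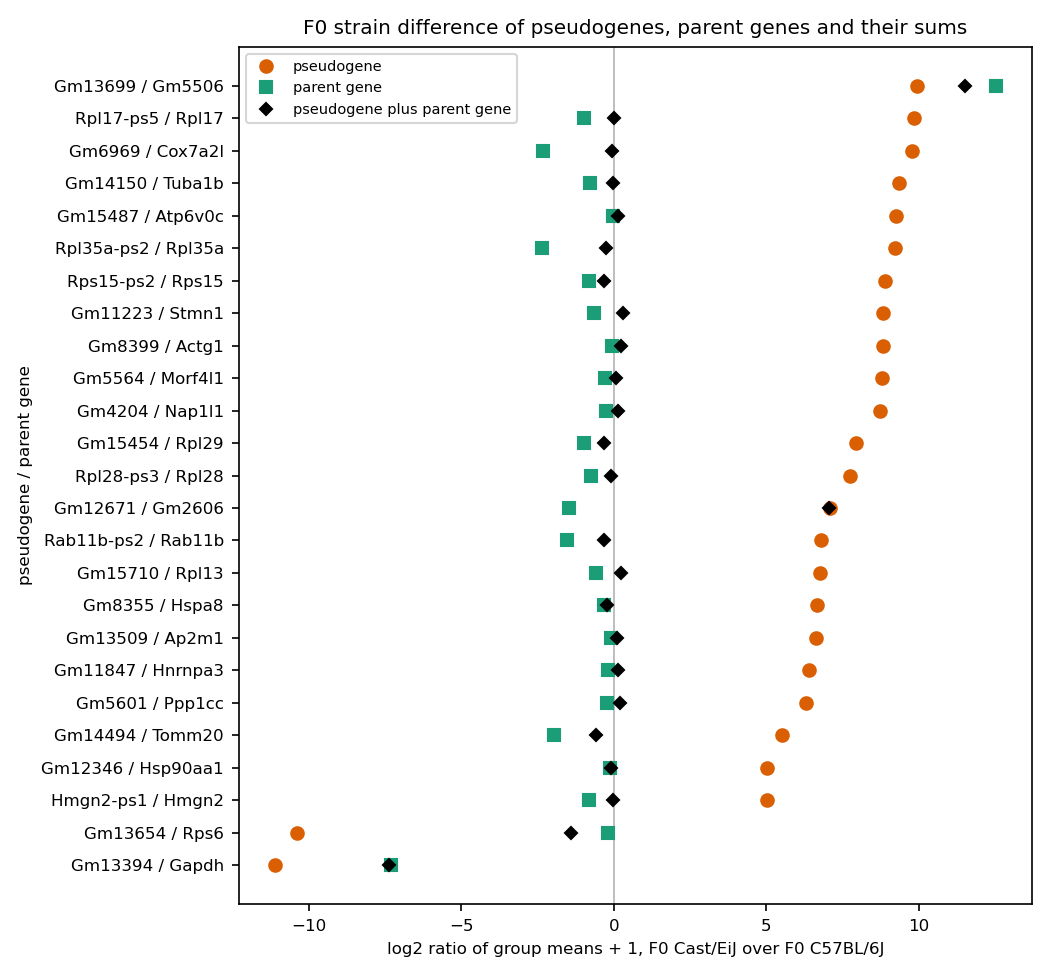
Log2 ratio of F0 Cast/EiJ over F0 C57BL/6J group means (+ 1) for 25 of the pseudogenes (circles) whose F0 libraries differed at least 10-fold, copies of mitochondrial genes left out, their parent genes (squares) and the sum of the pair (diamonds). The sums lie between -0.57 and 0.30, except for those of Gm13654 (-1.41), Gm13394 (-7.36), Gm12671 (7.06) and Gm13699 (11.53).

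Strain differences were also seen in members that shared fewer of their windows. Zfp783, with no parent, shared 7.95% of its windows and had 77.1 unique hits per 100 count equivalents. It had 305, 258 and 228 count equivalents in F0 C57BL/6J and 35.5, 41.7 and 20.5 in F0 Cast/EiJ, and fell by 3.03 on the log2 scale (SE 0.25, adjusted p = 3.31e-05). In F1 its C57BL/6J allele lay between 272 and 407 and its Cast/EiJ allele between 33.5 and 81.6, with no overlap. Pcdhb20 had 263, 295 and 265 count equivalents against 47.4, 43.1 and 49.5 in F0 (log2 difference -2.53 ± 0.13 SE, adjusted p = 1.51e-06), but its F1 alleles lay close, at 194 to 215 and 138 to 187 (-0.36 ± 0.05 SE, adjusted p = 0.00023). Gm9392, a copy of the small GTPase gene Rap1a, was the fifth largest decrease in F0 (-1.61 ± 0.26 SE, adjusted p = 0.00178, or 0.0507 without a filter on low values). It shared 27.3% of its windows with Rap1a, which was higher in F0 Cast/EiJ (0.59 ± 0.13 SE, adjusted p = 0.00838).

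The second comparison set the Cast/EiJ allele against the C57BL/6J allele within the F1 libraries. Of the 45 polymorphic members tested, the Cast/EiJ allele was higher in 15 and lower in 20, beside 22% and 22.2% (44.2% in all) of the 14157 genes tested. The median absolute difference was 3.47 for members, or 3.48 at the floor, and 0.22 for all genes. Members with a parent were called in 24 of 28 tests, with a median of 7.74, or 7.11 at the floor, and those without in 11 of 17, with a median of 0.36.

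Several members kept their strain in the hybrids. For 5 members at least 10-fold higher in F0 Cast/EiJ (Gm11847, Gm6969, Gm11223, Gm14494 and Gm15454), the Cast/EiJ allele was at least 10-fold the other in all 6 F1 libraries. Gm6969 had 1080, 1160 and 1080 count equivalents for the Cast/EiJ allele in F1 B6xCast and 1120, 1020 and 1060 in F1 CastxB6, with at most 1.32 for the C57BL/6J allele, a ratio of at least 362-fold. Gm11847, a copy of the RNA-binding protein gene Hnrnpa3, had between 1300 and 1500 count equivalents for the Cast/EiJ allele and at most 0.337 for the other, at least 481-fold. Gm11223, a copy of the microtubule-destabilizing stathmin gene Stmn1, had between 659 and 833 against at most 0.0136. Its parent had 1123 count equivalents in F0 C57BL/6J and 715 in F0 Cast/EiJ (log2 difference -0.64 ± 0.11 SE, adjusted p = 0.00189). Between the F1 alleles Stmn1 gave -6.91 ± 0.21 (SE, adjusted p = 4.73e-10), and its sum with Gm11223 gave -1.35 ± 0.06 (SE, adjusted p = 1.33e-08). Of the 5 parents of these members, the Cast/EiJ allele was called lower in 3 and higher in 0, beside 22.2% and 22% of all genes.

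Others took the opposite side or were near 0 in F1. Gm14150, Gm5601 and Rab11b-ps2 were higher in F0 Cast/EiJ, yet in F1 their C57BL/6J allele was the higher in all 6 libraries. Gm14150 had between 1260 and 1690 count equivalents on the C57BL/6J allele and between 37.4 and 140 on the Cast/EiJ allele (log2 difference -4.44 ± 0.24 SE, adjusted p = 5.6e-08). A further 11 members with 605 to 5687 count equivalents in F0 Cast/EiJ never exceeded 22.7 on an F1 allele. Among them were Gm13699 (at most 9.89), Rpl17-ps5 (at most 2.08, against 848, 1150 and 1060 in F0 Cast/EiJ) and Gm8399 (at most 0.0617). Eno1, with 2640 in F0 Cast/EiJ, stood between 24500 and 30200 on both alleles in every F1 library.

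Still others had similar mean levels in the F0 strains and lay on a single allele in F1. Rpl10a-ps1, Gm13826, Tpt1-ps3, Rps16-ps2, Eif4a-ps4, Gm13722, Gm12481 and Gm13835 had F0 group means within 2-fold, and all 8 were on the C57BL/6J allele in the 6 F1 libraries. The F0 libraries of Eif4a-ps4 were widely spread, at 0.00778, 620 and 427 count equivalents in F0 C57BL/6J and 136, 702 and 786 in F0 Cast/EiJ. Tpt1-ps3, a copy of the gene for translationally controlled tumor protein, had 897, 757 and 802 count equivalents in F0 C57BL/6J and 876, 908 and 986 in F0 Cast/EiJ. In F1 its C57BL/6J allele lay between 1620 and 1870 and its Cast/EiJ allele at or under 1.67, at least 589-fold lower. Gm13826, a copy of the large-subunit gene Rpl37, was split the same way, with at most 1.02 on the Cast/EiJ allele and at least 1120 on the other. Of these 8 members 6 had no unique hit in F0 and the highest F1 ratio was 0.872 unique hits per 100 count equivalents. Gm17132 is marked as non-polymorphic, so it was not tested for alleles, and the program placed its F1 signal on the Cast/EiJ allele. In F0 it had 795, 615 and 595 count equivalents in C57BL/6J and 562, 605 and 468 in Cast/EiJ. It had 155 to 1090 on the Cast/EiJ allele in F1 and at most 0.295 on the other, a ratio of at least 232-fold, with 75.2 unique hits per 100 count equivalents in F0 and no unique hit in F1. Rpl38-ps2 was near 0 in both F0 strains, at 0.0601 and 0.0514 count equivalents on average, and stood at 995 on the Cast/EiJ allele in F1, at least 332-fold higher than the C57BL/6J allele. Summed with their parents, 29 of 55 pairs were called in F1 against 44% of all genes, and 9 sums stayed beyond 4-fold, among them Rpl37 with Gm13826 (-5.95 ± 0.18 SE, adjusted p = 6.46e-10) and Gapdh with Gm13394 (-4.50 ± 0.24 SE, adjusted p = 5.6e-08). In F0 the first of these sums differed by -0.18 ± 0.30 (SE, adjusted p = 0.688) and the second by -7.37 ± 0.11 (SE, adjusted p = 1.41e-09).

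Some members changed sides between F1 libraries. An allele was counted as holding the signal of a library where it had at least 10 count equivalents and at least 10 times the other allele. For 20 of the 84 members (23.8%) the signal lay on the C57BL/6J allele in at least 1 library and on the Cast/EiJ allele in at least 1 other, against 1.68% of other autosomal genes. In 17 of the 20 both sides were seen within the same cross. Of these 20, 19 were among the 35 non-polymorphic members (54.3%), and other non-polymorphic genes of the same mean did so in 109 of 201 cases (54.2%). Gm17131 was at 4760 to 5590 count equivalents in F0 C57BL/6J and 3050 to 3950 in F0 Cast/EiJ. In F1 B6xCast its C57BL/6J allele had 0.325, 6800 and 0.723 and its Cast/EiJ allele 7360, 0.194 and 6750. Replicates of a cross thus lay on opposite alleles, while the larger allele of each of these libraries was between 6750 and 7360.

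Gm15500, a copy of the ribosomal gene Rpl5, had 2.14, 1.02 and 2790 on the C57BL/6J allele of F1 B6xCast and 2470, 3310 and 8.17 on the Cast/EiJ allele. Signal on different alleles in different libraries was also seen for Gm10163, ENSMUSG00000093641, Rpl15-ps3, AY036118, Gm3244, Gm10040, Gm12671 and Gm1821. For Gm12671 the 2 alleles of F1 CastxB6 were 13900 and 19800, 25200 and 729, and 21.5 and 29300 in the 3 libraries, with sums of 33700, 25929 and 29322. The single polymorphic member of the 20 was Gm15501, with no unique hit in F1.

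**Figure D4:**
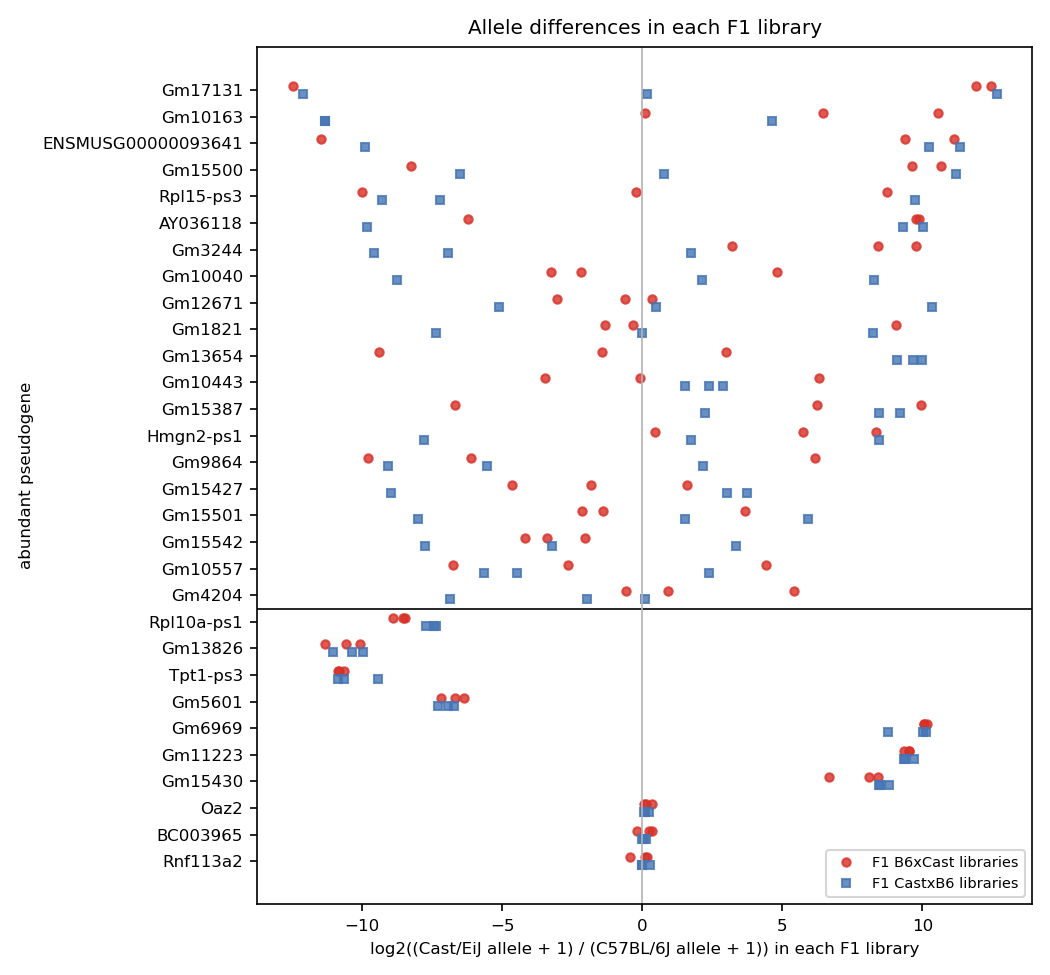
Log2 ratio of the Cast/EiJ over the C57BL/6J allele (each + 1) in the 3 F1 B6xCast libraries (circles) and the 3 F1 CastxB6 libraries (squares). The upper 20 rows are members with signal on different alleles in different libraries, the lower 10 rows are members that kept a side or stayed near 0, such as Oaz2.

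In 16 members that were within 2-fold in F0 the F1 alleles also stayed close, 13 of them without a parent, with a median of 77.8 unique hits per 100 count equivalents in F0. The median did not hold for every one of them, since Gm13502, a copy of Idi1, had 1.56. Nor were all members with a high ratio of unique hits in F0 among the 16, as AY036118 (80.5 per 100) and ENSMUSG00000093641 (68.6) had signal on different F1 alleles in different libraries. Oaz2 had 1100, 1070 and 998 count equivalents in F0 C57BL/6J and 1160, 1040 and 1060 in F0 Cast/EiJ, overlapping ranges. Its F1 alleles lay between 917 and 1030 (C57BL/6J) and between 1050 and 1190 (Cast/EiJ), which did not overlap (log2 difference 0.17 ± 0.04 SE, adjusted p = 0.00759). Ppp4r1l-ps, a phosphatase regulatory subunit pseudogene, gave 0.39 ± 0.07 (SE, adjusted p = 0.00124) between the alleles and 5830417I10Rik gave -0.31 ± 0.07 (SE, adjusted p = 0.00285).

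The reciprocal crosses share their nuclear autosomes and differ in the mother. Of the 72 members tested for the sum of both alleles, 3 were called, Gm13340, Gm13341 and Gm11407, all higher in F1 B6xCast, beside 0.0401% of the 14967 genes tested. All 3 are copies of mitochondrial genes. Gm13340 had 99700, 92200 and 85100 count equivalents in F1 B6xCast (both alleles) and 0.247, 0.491 and 0.288 in F1 CastxB6, at least 30778-fold lower (adjusted p = 1.03e-09). Gm13341 had 49400, 35870 and 33900 against at most 0.348, at least 13241-fold (adjusted p = 2.15e-08). Gm11407 had 654, 615 and 502 against at most 0.0205, at least 197-fold (adjusted p = 1.73e-06), a call that was lost on the deposited log expression.

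The remaining mitochondrial copy, Gm13339 (parent mt-Nd2), did not pass the test (adjusted p = 0.0612) with 2790, 1400 and 125 count equivalents in F1 B6xCast and at most 0.0089 in F1 CastxB6. Groups were without overlap and higher in F1 B6xCast for 10 members, against 5.2% of all genes, and lower for 3 members, against 5.58%. With 3 libraries against 3, an exact permutation test cannot go below p = 0.1.

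F0 levels of the 4 mitochondrial copies went with the same mitochondrial lineage. Gm13340 had 15.7, 7.03 and 8.11 count equivalents in F0 C57BL/6J and 50000, 41600 and 44200 in F0 Cast/EiJ (log2 difference 12.04 ± 0.24 SE, adjusted p = 5.88e-09), and Gm13341 had 10.3, 7.57 and 8.11 against 28000, 14000 and 17300 (10.95 ± 0.23 SE, adjusted p = 7.29e-09, or 0.113 when weighted by posterior SD). Gm13339 had at most 4.75e-05 against 1940, 466 and 764, and Gm11407 at most 0.773 against 347, 248 and 253. All 4 were without overlap between the strains. Together they took 0.496% ± 0.0903 of the count equivalents in F0 Cast/EiJ and 0.513% ± 0.0643 in F1 B6xCast (SD, n = 3), and 0.000144% ± 4.88e-05 in F0 C57BL/6J and 2.14e-06% ± 9.13e-07 in F1 CastxB6.

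The 3 copies on chromosome 2 lie side by side. Gm13341, Gm13340 and Gm13339 fall within chr2:22442811-22446053, 3243 bases. Read along the minus strand, they follow the mitochondrial order of mt-Nd2, mt-Co1 and mt-Co2. Their identity to it was 95.9%, 97.6% and 96.7%, and that of Gm11407, on chromosome 4, was 92.3%. Few of their read-length windows had an exact copy elsewhere in this reference, with 15% for Gm13341, 5.33% for Gm13340, 7.07% for Gm13339 and 0% for Gm11407. Unique hits in F0 Cast/EiJ were 27752, 23973 and 31157 for Gm13340 against 14, 7 and 7 in F0 C57BL/6J.

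The mitochondrial genes themselves moved the other way. The 13 protein-coding genes took 5.29% ± 1.26 of the count equivalents in F0 C57BL/6J and 4.81% ± 0.357 in F1 CastxB6, but 1.78% ± 0.394 in F0 Cast/EiJ and 1.70% ± 0.286 in F1 B6xCast (SD, n = 3). The parent of Gm13340, mt-Co1, had 185000, 149000 and 150000 in F0 C57BL/6J against 70700, 50000 and 53600 in F0 Cast/EiJ, and 136100, 107200 and 100000 in F1 B6xCast against 326000, 351000 and 316000 in F1 CastxB6 (both alleles). Of 15 mitochondrial genes, 10 were lower without overlap in F0 Cast/EiJ, 11 in F1 B6xCast and 10 in both, and 0 were higher in either. The most extreme was mt-Nd3, with 5967 count equivalents on average in F0 C57BL/6J and 3.01 in F0 Cast/EiJ. The groups overlapped in both comparisons for mt-Rnr1, mt-Atp8, mt-Nd6 and mt-Nd4l, mt-Nd4 was lower without overlap in F1 B6xCast but not in F0 Cast/EiJ, and mt-Rnr2, mt-Nd1, mt-Nd2, mt-Co2, mt-Atp6, mt-Co3, mt-Nd5 and mt-Cytb were lower in both.

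Adding the copies did not level the sums. In F0, mt-Co1 plus Gm13340 came to 161344 ± 20507 in F0 C57BL/6J and 103367 ± 15328 in F0 Cast/EiJ (SD, n = 3), a log2 difference of -0.65 ± 0.15 (SE, adjusted p = 0.00912). Between the crosses the sums of mt-Co1, mt-Co2 and mt-Nd2 with their copies did not pass the test (0.68 ± 0.10, 0.87 ± 0.10 and 1.72 ± 0.20 SE in favor of F1 CastxB6, adjusted p = 0.208, 0.116 and 0.116), and that of mt-Nd5 with Gm11407 was called (1.78 ± 0.12 SE, adjusted p = 0.00768), the only such call among 61 sums, beside 0.0268% of all genes.

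**Figure D5:**
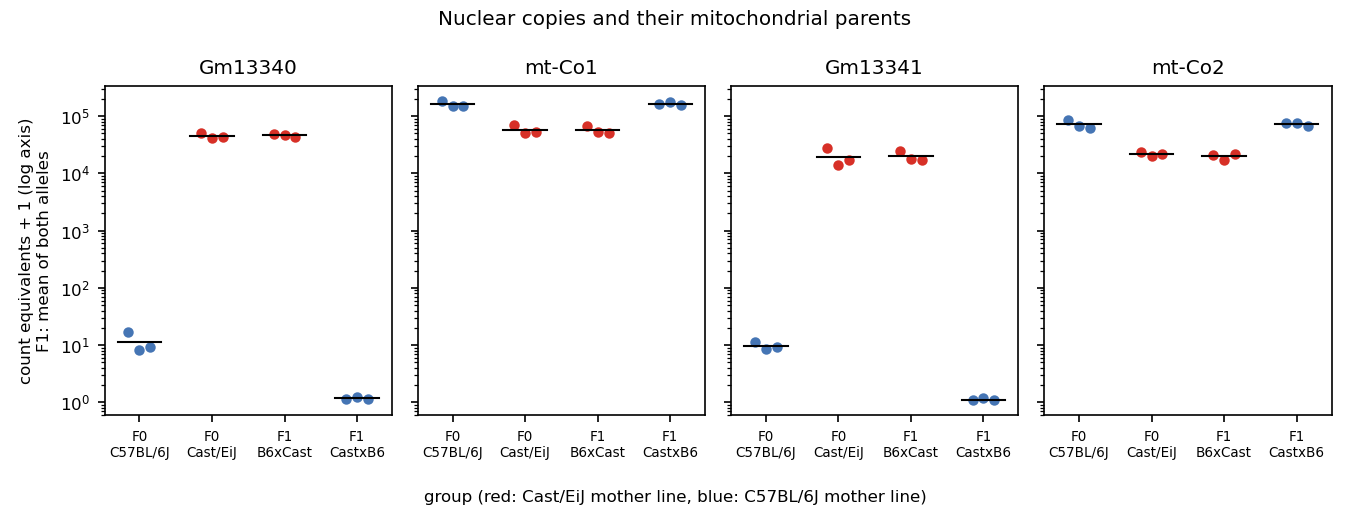
Count equivalents + 1 (log axis; the mean of both alleles in F1) of Gm13340, mt-Co1, Gm13341 and mt-Co2 in the 3 libraries of each group (points) with the group mean (line), red with Cast/EiJ mitochondria and blue with C57BL/6J mitochondria. The nuclear copies are high in the red groups and near 1 to 16 in the blue groups, while mt-Co1 and mt-Co2 are lower in the red groups.

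In the parent-of-origin comparison, maternal against paternal allele over both crosses, Gm11407 was the only member called of 45 tested (4.60 ± 0.24 SE, adjusted p = 4.79e-07), beside 0.396% of all genes. All of its signal lay on the Cast/EiJ allele of F1 B6xCast (654, 615 and 502 count equivalents, 20, 30 and 19 unique hits), with at most 0.0137 on every other allele. The same 3 values therefore made up its allelic difference (4.60 ± 0.24 SE, adjusted p = 4.65e-08), its cross difference and this difference. Gm13340, Gm13341 and Gm13339 are non-polymorphic and were not tested for alleles. Gm13340 and Gm13341 carried signal on both alleles of F1 B6xCast, with 0 unique hits.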

How the data were processed

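Retinal polyA RNA was sequenced as paired reads of 101 bases on 1 lane (F0) or 2 lanes (F1). The authors trimmed reads with Trim Galore 0.2.6, aligned them with Bowtie 0.12.9 to transcriptomes of their own strain (F0) or of both strains (F1), built from NCBI37/mm9 and the strain variants, and ran MMSEQ. The deposited tables hold unique hits (raw read counts), normalized count equivalents (a signal that includes shared reads), expression on a natural log scale and its posterior SD (a score). A table of the authors' model comparisons holds fits and posterior values, of which only the mark for non-polymorphic genes was used; 36 columns of sample values there were not used.

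Members and lists were chosen with earlier results of these data known. The rule on the mean used all 18 columns. Differences were fitted over all autosomal genes that reached 10 count equivalents in 3 or more columns with limma 3.58.1 (trend, log2(count equivalents + 1), Benjamini-Hochberg, threshold 0.05), so folds of low genes are understated; F1 alleles had the library as a block (correlation 0.0734). Unique hits were tested with edgeR 4.0.16. A floor of 3 count equivalents was used for group means. Pseudogenes were aligned with blastn 2.17.0+ to annotated transcripts and the mitochondrial genome of NCBI37. Patterns (10-fold, 2-fold) were defined after the values were seen. Genes were named by rank: the 15 highest, the 5 largest changes each way per comparison, mitochondrial copies, extremes of unique hits, neighbors of the limit, 10 members that change sides, and parents; others were named after their values were seen. Scripts were tested on simulated data. Alternatives were other pseudocounts, filters, TMM factors, DESeq2 1.42.0, log expression, unique hits, a replicate block and leaving out each library. Values of 1 member and of the parent of another are not reported here singly.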

Additional observations from a re-analysis of the deposited data

Results flagged for a closer look

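Gm11407, the copy of mt-Nd5 on chromosome 4, stood out because its allele difference depended on the direction of the cross. The maternal minus paternal difference was 4.60 on the log2 scale, from 654, 615 and 502 count equivalents on the Cast/EiJ allele of F1 B6xCast and at most 0.0137 on that allele in F1 CastxB6. It was called by limma on count equivalents, but not on the deposited log expression or on unique hits.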

How the results depend on the processing

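The counts of called members kept within 1.5 times the reported count in 72 of 83 recomputed values, and no named member reversed. With unique hits, the allelic count was 23, the cross count 1 and the parent-of-origin count 0, and a filter on allele-specific unique hits left 21 allelic calls; these settings test fewer members. The parent-of-origin count was 2 with no filter on low values. It was 0 on the deposited log expression and 0 with parents added (limma), and 0 on unique hits (edgeR), where the unadjusted p was under 0.05 for 7 of 45 members, 6 of 55 sums and 1 of 29 members. The cross count was 1 with parents added. Leaving out each library gave 50 to 60 F0 calls, 46 to 51 on unique hits, 34 to 36 allelic, 3 to 4 cross, 1 parent-of-origin and 16 to 20 calls on sums of pairs. Unique hits per 100 count equivalents had a median of 0.0179 in F1. Sums with parents gave 30 calls with a replicate block and 11 over families sharing at least 10% of windows; both the window families and the sums in F1 were added after the data were seen. Same-numbered libraries correlated at 0.326, 0.030 and 0.137 in F0 and at -0.103, -0.118 and -0.056 in F1, so the numbers were not taken to pair the libraries, and 3 of 6 F0 and 0 of 6 F1 libraries matched their own number best. Of single members, 9 of 325 values lost their call: Gm12671 and Gm9392 without a filter, Gm11407 in the cross and parent-of-origin tests on log expression and in the latter on unique hits, and Gm15501, Gm13341, Gm12671 and Gm13654 when weighted by posterior SD. The cause was not tested. Reads without a unique match limit any value of a single locus.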
